A study of Mus musculus with 10 samples.

Results

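The genes described here are the glutathione transferases of mouse liver and the other well known targets of NRF2, together with the genes for NRF2 itself and its repressor KEAP1. Members were taken by gene symbol from a list of 40 names, and all 40 were found among the 24062 genes of the table: 22 glutathione transferases and 18 other genes of the NRF2 response. RNA sequencing was done on 8 liver pools and 2 tumours, 10 libraries in all. Liver came from mice on a normal or a Western diet, given either oil, the vehicle, or carbon tetrachloride (CCl4), a solvent that injures hepatocytes when it is metabolised, for 12 or 24 weeks. Each of the 8 combinations was 1 library made from 4 pooled mice, so every group of diet and treatment had 2 pools, 1 per duration, and no liver was measured alone. The 4 groups were the normal diet with oil, the normal diet with CCl4, the Western diet with oil, and the Western diet with CCl4, called the joint exposure below. Both tumours were labelled hepatocellular carcinoma, came from single mice after 24 weeks of the joint exposure, and are called tumour 1 and tumour 2. The sources used here do not give strain, sex, age at the start or CCl4 dose.

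NRF2 is a transcription factor that KEAP1 holds in the cytoplasm and marks for degradation. Electrophiles and oxidants modify KEAP1, NRF2 then accumulates in the nucleus, pairs with small MAF proteins and binds antioxidant response elements near genes for detoxification, glutathione synthesis and NADPH supply. Glutathione transferases join glutathione to electrophiles; the liver is one of the organs richest in them, and several, but not all, are NRF2 targets.

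Values are normalised reads per gene, as deposited. Library depth was 23206229 to 30137802 reads, and the 12648 genes that reached a value of 1 in 2 or more libraries were tested, 39 members among them. Mgst2, a microsomal glutathione transferase, was the member left out, with at most 4 reads in any library. Changes are differences of log2(value + 1), which understates the change of low genes, and were tested with limma across all 12648 genes, with duration as a term and Benjamini-Hochberg adjusted p under 0.05 as the threshold for a call. The error in tests among pools is how the difference between the 12- and 24-week pools varies over the 4 groups. The part of that difference shared by the groups is taken up by the duration term. The error does not measure the spread between animals. With the tumours it also holds the spread between 2 tumours of single mice. Hepatocyte markers summed to between 97560 and 184154 normalised reads in the pools, 112931 in tumour 1 and 334300 in tumour 2. Albumin (Alb) was the largest single part of each sum. Macrophage markers summed to 345 and 486 in the normal-diet oil pools (12 and 24 weeks, in that order here and below), to 863 and 1240.4 with CCl4 on the normal diet, to 649 and 763 on the Western diet with oil, and to 1441 and 1207 under the joint exposure. Under CCl4 on the normal diet 10 of 12 macrophage, 9 of 10 stellate and myofibroblast, 5 of 8 endothelial, 3 of 9 bile duct and 1 of 3 tested neutrophil markers were called higher, and 3 of 10 hepatocyte markers lower. With joint exposure the counts were 11, 9, 4, 2 and 1 higher and 3 hepatocyte markers lower, and on the Western diet alone 4 macrophage and 6 stellate markers were higher. Of all tested genes, 26% were called with CCl4 on the normal diet, 25.9% with joint exposure and 1.99% with the diet alone. Mmp8, a neutrophil marker, was listed at 0 in at least 1 library. In bulk tissue, fewer cells of a type and less RNA per cell cannot be told apart, and the part of cell composition in the results below was not tested.

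Several glutathione transferases have near-identical copies, and the sources used here do not give how reads were assigned between them. Of the 50-base words in the exons of Gsta1, 90.5% also occur in another gene, most often Gm3776; the share was 54.3% for Gstp2, mostly with Gstp1, 49.8% for Gsta2, 33.7% for Gstp1, 28.8% for Gstm3, 18.9% for Gstm1 and 12.5% for Gstt3. Values of these genes are uncertain to that extent. The other members shared at most 6.67%.

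Per kilobase of exon, the most abundant members in unexposed liver (normal diet with oil) were Mgst1, the microsomal glutathione transferase, at 1985 and 2394 normalised reads per kb, and Gstm1 of the mu class at 1679 and 1629.7. Gstp1 of the pi class followed at 744 and 809, then Gsta3 of the alpha class at 455 and 522 and Ephx1, the microsomal epoxide hydrolase, at 266 and 265. No neighbours in that order of 5 overlapped between their pairs of pools. At the other end, Cbr3, a carbonyl reductase, stood at 0.849 and 1.06, and Gpx2, Slc7a11 and Mgst2 were lower still. The quinone reductase gene Nqo1, much used as a readout of NRF2, was at 6.54 and 6.98 per kb, a low level beside the abundant transferases named above.

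The promoters bear on how NRF2 targets are recognised, so windows of 250 bases before to 50 bases after the annotated start (RefSeq, GRCm38.p6) were searched in the 250 upstream bases for TGACNNNGC, the core letters of the antioxidant response element, on both strands (GCNNNGTCA on the reverse). Of the 35 members with a window, 8 (22.9%) held a match: 4 of 20 glutathione transferases (Gsta3, Gstm5, Gstm7 and Mgst1) and 4 of 15 others (Nfe2l2, Gclm, Txnrd1 and G6pdx). Among all 27025 genes with a window the share was 11.5%, and among the 9574 that were also tested, 14.2%; genes with several windows had more chances. Gsta4, Gstt2, Gclc, Gsr and Hmox1 had no window. A match is a description of letters and not a site of binding, and no match says only that these letters are not in this window. For 5 members the match is printed with the 30 bases on either side, because they include abundant transferases (Gsta3, Mgst1) and a gene each of glutathione synthesis (Gclm), thioredoxin reduction (Txnrd1) and NADPH supply (G6pdx). These stretches lie at chr1:21240434-21240502 (plus strand), chr6:138140441-138140509 (plus), chr3:122245393-122245461 (plus), chr10:82859084-82859152 (plus) and chrX:74428899-74428967 (minus), are written 5′ to 3′ along the gene's strand, and have the match in capitals. The starts used for Mgst1, Txnrd1 and G6pdx lie inside the longest gene model.

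Gsta3: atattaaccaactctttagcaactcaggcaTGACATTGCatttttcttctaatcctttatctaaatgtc
Mgst1: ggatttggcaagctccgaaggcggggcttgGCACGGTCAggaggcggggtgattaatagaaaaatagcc
Gclm: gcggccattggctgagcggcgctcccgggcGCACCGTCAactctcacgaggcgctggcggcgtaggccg
Txnrd1: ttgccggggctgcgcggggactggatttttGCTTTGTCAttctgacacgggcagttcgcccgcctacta
G6pdx: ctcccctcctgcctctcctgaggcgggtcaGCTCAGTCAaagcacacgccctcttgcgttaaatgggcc

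In Gsta3 the match is on the gene's own strand, and in the other 4 it is on the opposite strand, so the capitals read as GCNNNGTCA.

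The first comparison asks what CCl4 did on the normal diet. Of the 39 tested members, 10 rose and 9 fell, against 26% of all tested genes called. Among the 21 glutathione transferases 4 rose and 7 fell, with a median change of -0.36, while among the 18 other NRF2 genes 6 rose and 2 fell, with a median of 0.33; the median over all tested genes was 0.00. The difference between the sets is a description and was not tested.

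Gstp1, a pi-class transferase, was at 1151 and 1252 normalised reads in the normal-diet oil pools and at 304 and 251 with CCl4. Both CCl4 pools lay far below both oil pools, and Gstp1 fell by 2.12 ± 0.22 on the log2 scale (SE, adjusted p = 0.000512). Its neighbour Gstp2, whose reads may belong in part to Gstp1, went from 3.24 and 7.91 to 1.51 and 1.37, and fell by 1.33 ± 0.42 on the log2 scale (SE, adjusted p = 0.0454). Gsta3, the most abundant alpha-class gene, measured 1976 and 2265 with oil and 1446 and 1153 with CCl4, without overlap. It fell by 0.71 ± 0.20 on the log2 scale (SE, adjusted p = 0.0331). Gsto1, an omega-class enzyme with thiol transferase activity, was at 110.3 and 118 with oil and 74.7 and 63.3 with CCl4, again with both CCl4 pools lower, and fell by 0.72 ± 0.17 on the log2 scale (SE, adjusted p = 0.0183). The remaining fallers were Gsta4, which conjugates lipid aldehydes from peroxidation, and the mu-class genes Gstm6 and Gstm7, with log2 changes of -0.36, -0.73 and -0.69.

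Members of the same alpha and mu classes rose. Gstm3, in the mu-class cluster at chr3:107963696-107969283 (GRCm38, minus strand), was at 126 and 164 with oil and 455 and 501 with CCl4, with a wide gap between the pairs, and rose by 1.73 ± 0.14 on the log2 scale (SE, adjusted p = 0.000162). The low-level Gsta1 went from 2.84 and 4.99 to 10.4 and 13.7 and rose by 1.44 ± 0.18 on the log2 scale (SE, adjusted p = 0.00109). Gstm2 was at 85.1 and 93.6 with oil and 154 and 142 with CCl4, and rose by 0.72 ± 0.13 on the log2 scale (SE, adjusted p = 0.00593). The 7 mu-class genes lie within 1 stretch of chromosome 3, from 107895821 to 108044894, and of these Gstm2 and Gstm3 rose while Gstm6 and Gstm7 fell. Mgst3, a microsomal member, rose by 0.52, whereas Mgst1 was at 3996 and 4820.1 with oil and 4187 and 3425 with CCl4, ranges that overlap. Gstm1 had 2473 and 2401 with oil and 2731 and 2905 with CCl4, a small difference that was not called.

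Of the regulators, Nfe2l2, which encodes NRF2, was at 70.3 and 62.4 with oil and 113 and 102 with CCl4, and rose by 0.69 ± 0.10 on the log2 scale (SE, adjusted p = 0.00258). Keap1 stood at 58.9 and 57.6 with oil and 67.3 and 59.6 with CCl4, and its change of 0.12 ± 0.12 (SE, adjusted p = 0.491) was not called. Among the enzymes for quinones and carbonyls, Cbr3 went from 1.06 and 1.33 to 8.75 and 6.74, that is from 24 and 29 reads to 220 and 227, and rose by 1.99 ± 0.21 on the log2 scale (SE, adjusted p = 0.000589). Nqo1 went from 10.2 and 10.8 to 18.9 and 19.7 and rose by 0.82 ± 0.16 on the log2 scale (SE, adjusted p = 0.00799). Neither pair of pools overlapped. Srxn1, sulfiredoxin, which restores oxidised peroxiredoxins, was at 49.3 and 57.7 with oil and 135 and 117 with CCl4, and rose by 1.22 ± 0.19 on the log2 scale (SE, adjusted p = 0.0032). Hmox1, haem oxygenase, was at 20.7 and 26.6 with oil and 38.8 and 45.4 with CCl4. It rose by 0.81 ± 0.13 on the log2 scale (SE, limma adjusted p = 0.00368). This gene is also expressed by macrophages, whose markers were higher in the same pools, as were markers of other cell types. The part of cell composition in its rise was not tested. Pgd, of the pentose phosphate pathway, rose by 0.64. The CCl4 pools were the higher pair for each of these genes.

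Genes of glutathione supply were lower or not called. Gclc, the catalytic subunit of the enzyme that limits glutathione synthesis, was at 608 and 427 with oil and 331 and 367 with CCl4, and fell by 0.55 ± 0.16 on the log2 scale (SE, adjusted p = 0.0369). Its modifier subunit Gclm was at 210.4 and 195 with oil and 165 and 165 with CCl4, lower in both CCl4 pools, and its change of -0.29 ± 0.12 (SE, adjusted p = 0.103) was not called. Osgin1, an oxidative stress-induced growth inhibitor, was at 293 and 135 with oil and 142 and 69.5 with CCl4, so the groups overlap and the lower level shows only within each duration; it fell by 0.99 ± 0.25 on the log2 scale (SE, adjusted p = 0.0207). Slc7a11, the cystine importer, had 0 and 2 reads with oil and 27 and 24 with CCl4, too few for a fold change. Gpx2, a glutathione peroxidase of epithelia, had 6 and 0 reads with oil and 16 and 12 with CCl4. Both entered the tests only through libraries where they were high: Slc7a11 reached a value of 1 only in a 12-week CCl4 pool on the normal diet, the 24-week joint pool and tumour 1, and Gpx2 only in the 24-week joint pool and tumour 1.

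Of the 19 calls, 12 were kept without the 24-week normal-diet oil pool, 12 without the 12-week and 10 without the 24-week normal-diet CCl4 pool, and 11 without the filter on low values. The transferase median of -0.36 became -0.13 without the 24-week normal-diet oil pool and -0.22 without the 24-week normal-diet CCl4 pool. Calls on Gstp1, Gstm3, Gsta1, Gstm7, Cbr3, Srxn1, Hmox1 and Nfe2l2 held under every alternative tried.

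**Figure D1:**
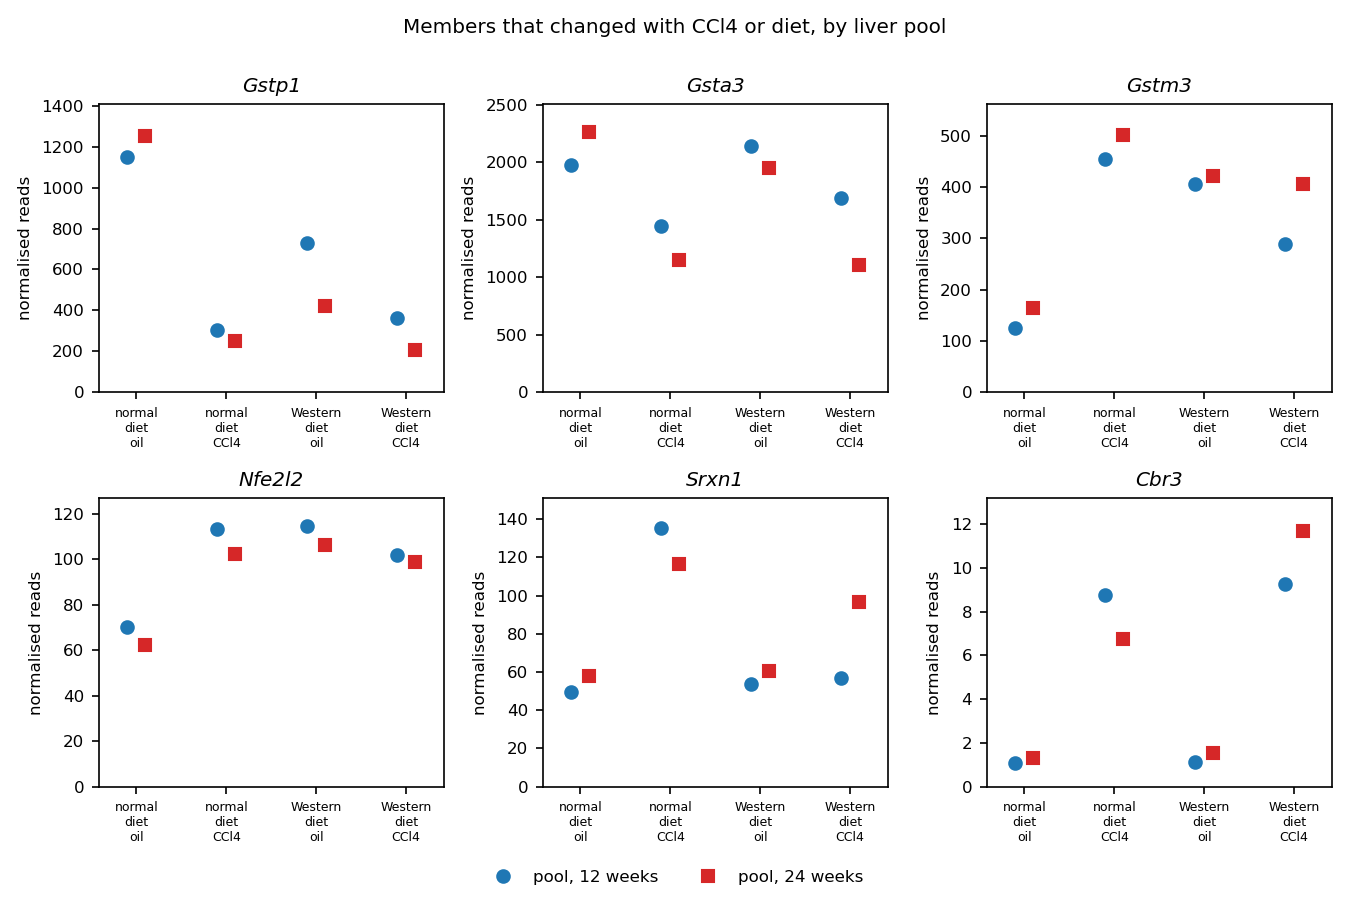
Normalised reads (linear axis from 0) of Gstp1, Gsta3, Gstm3, Nfe2l2, Srxn1 and Cbr3 in the 8 liver pools, grouped by diet and treatment, with circles for 12 weeks and squares for 24 weeks. Gstp1 is highest in the normal-diet oil pools (1151 and 1252), and Cbr3 is between 6.74 and 11.7 in the 4 CCl4 pools and at most 1.56 in the 4 oil pools.

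The Western diet alone, compared with the normal diet in oil-treated mice, changed 3 of 39 members (2 rose and 1 fell) against 1.99% of all tested genes. The median change was -0.17 for glutathione transferases, 0.08 for the other NRF2 genes and 0.02 over all tested genes. This comparison uses the same normal-diet oil pools as the one above, so their values are given side by side and no overlap is counted. Gstm3 was at 406 and 421 on the Western diet, above both normal-diet oil pools, and rose by 1.52 ± 0.14 on the log2 scale (SE, adjusted p = 0.00163). Nfe2l2 was at 115 and 106 and rose by 0.73 ± 0.10 on the log2 scale (SE, adjusted p = 0.0142). Gstp1 was at 729.7 and 423, below both normal-diet oil pools but far apart from each other, and fell by 1.11 ± 0.22 on the log2 scale (SE, adjusted p = 0.0407). Omitting the 12-week Western-diet oil pool left 0 calls, omitting either the 24-week normal-diet or the 24-week Western-diet oil pool left 1, and without the filter there were 0. With 1 library left out the medians lay between -0.30 and -0.03 for the transferases and between 0.04 and 0.14 for the other genes, each extreme without a normal-diet oil pool. Nqo1, at 10.2 and 10.8 on the normal and 9.53 and 13.3 on the Western diet, was not called, and neither was Cbr3, at 1.06 and 1.33 and then 1.11 and 1.56.

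Under the joint exposure, compared with the normal diet and oil, 8 members rose and 12 fell of 39, against 25.9% of all tested genes called. Among the 21 glutathione transferases 2 rose and 9 fell, with a median of -0.43 (-0.26 without the 24-week joint pool). Of the other 18 genes 6 rose and 3 fell, with a median of 0.37; over all tested genes the median was -0.02. The controls are again the normal-diet oil pools of the comparisons above. Gstp1 was at 362 and 206, against 1151 and 1252 without exposure, and fell by 2.13 ± 0.22 on the log2 scale (SE, adjusted p = 0.000389). Gstm3 measured 289.5 and 407 and rose by 1.25 ± 0.14 on the log2 scale (SE, adjusted p = 0.000481), and Gsta1, at 5.84 and 8.62, rose by 0.76.

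Transferases called lower with joint exposure, but not with CCl4 on the normal diet, came from 3 classes; the difference between the 2 comparisons is the Western diet added to CCl4, given below, in which limma called no member. Gstm4 of the mu class was at 105 and 117 unexposed and 66.9 and 71.5 exposed, and fell by 0.67 ± 0.12 on the log2 scale (SE, adjusted p = 0.00521). Gstt3 of the theta class was at 82.2 and 92.04 unexposed and 49.5 and 44.7 exposed and fell by 0.87 ± 0.19 on the log2 scale (SE, adjusted p = 0.0114). Neither pair overlapped. Gstt1, the theta-class enzyme that acts on small halogenated compounds, was at 292 and 295 unexposed and 205 and 213 exposed, and fell by 0.49 ± 0.11 on the log2 scale (SE, adjusted p = 0.0155). The peroxisomal and mitochondrial Gstk1 was at 127 and 139 unexposed and 105 and 94.5 exposed and fell by 0.40 ± 0.13 on the log2 scale (SE, adjusted p = 0.0471). Both exposed pools were the lower pair for each of them. Gsta4, Gstm6, Gstm7 and Gsto1 fell by 0.54, 0.88, 0.66 and 0.57.

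On the log2(value + 1) scale Cbr3 had the largest fitted change of the 39 members in this comparison, from 1.06 and 1.33 to 9.26 and 11.7, and rose by 2.38 ± 0.21 on the log2 scale (SE, adjusted p = 0.000219). Nfe2l2 was at 102 and 98.9 and rose by 0.59 ± 0.10 on the log2 scale (SE, adjusted p = 0.00458). In the pentose phosphate pathway, which supplies NADPH, G6pdx went from 5.06 and 6.22 to 10.98 and 11.1 and rose by 0.87 ± 0.18 on the log2 scale (SE, adjusted p = 0.0101), and Pgd rose by 0.55. Hmox1 rose by 0.64. Slc7a11 was also called higher (limma adjusted p = 0.0435), on 12 and 80 reads against 0 and 2, and the 80 are those of the 24-week pool. That pool is among the libraries through which Slc7a11 passed the filter, so its place in the counts of members that rose with joint exposure carries no weight. Of the genes that fell, Gclc was at 323 and 323 and fell by 0.66 ± 0.16 on the log2 scale (SE, adjusted p = 0.0185). Gsr, glutathione reductase, was at 92.6 and 83.9 unexposed and 57.2 and 60.8 exposed and fell by 0.57 ± 0.11 on the log2 scale (SE, adjusted p = 0.00657). Osgin1, at 87.5 and 81.4, fell by 1.23 ± 0.25 on the log2 scale (SE, adjusted p = 0.00819). Nqo1, at 12.1 and 16.7 against 10.2 and 10.8, and Srxn1, at 56.8 and 96.4 against 49.3 and 57.7, were not called, although both had been with CCl4 on the normal diet. Of the 20 calls, 13 were kept without the 24-week normal-diet oil pool, and 11 without the filter. Calls on Gstp1, Gstm3, Gsta4, Gstm6, Gstm7, Cbr3, Gsr and Nfe2l2 held under every alternative tried.

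**Figure D2:**
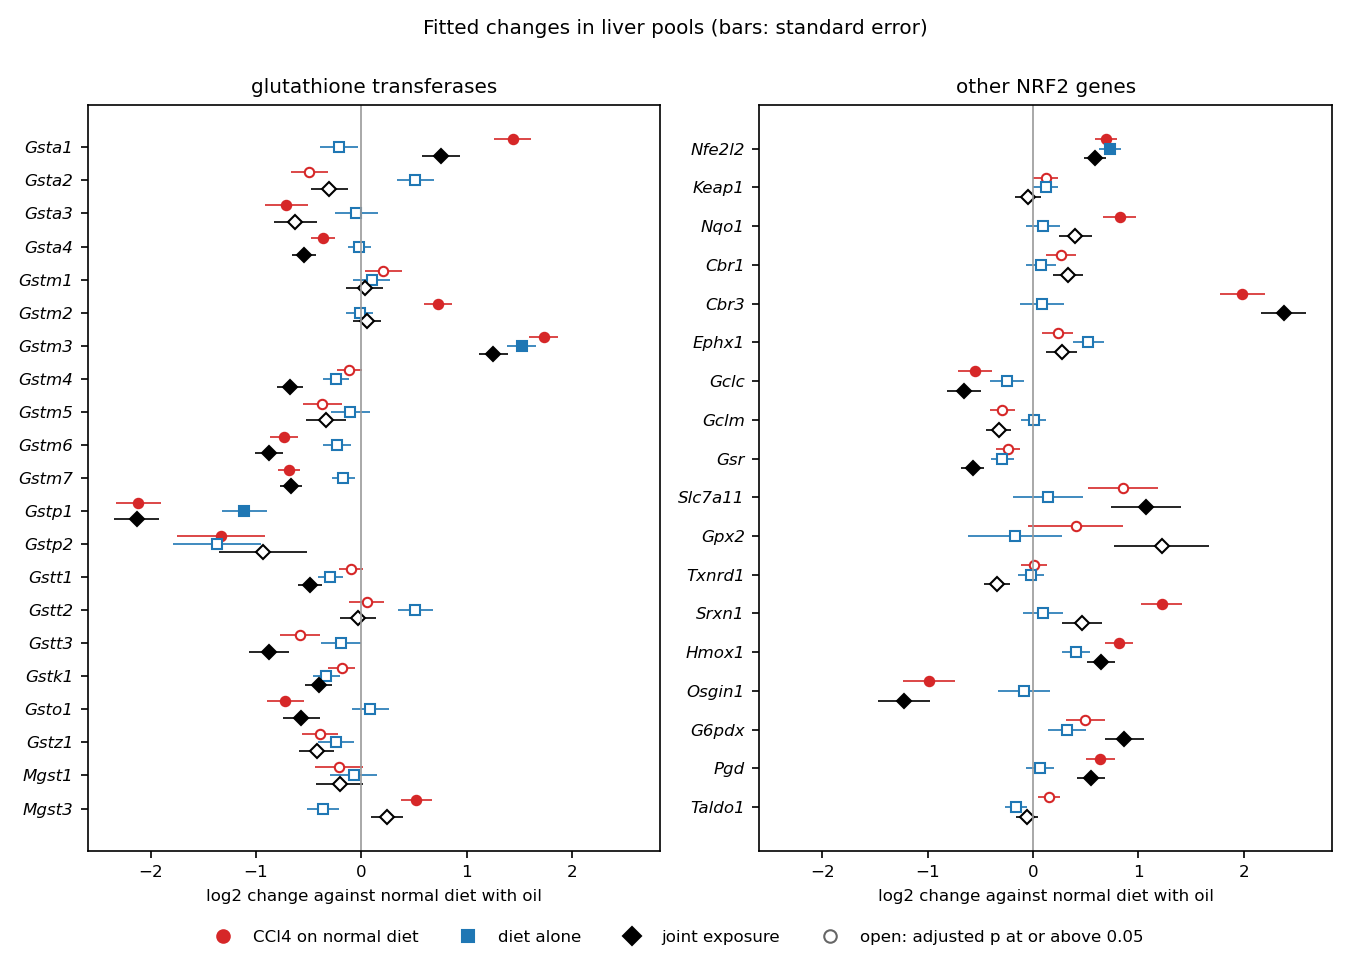
Log2 change from the normal-diet oil pools with its SE for the 39 tested members (1 line each) under CCl4 on the normal diet, the Western diet alone and the joint exposure; filled symbols passed the adjusted p threshold. All 3 comparisons share the same normal-diet oil pools. Gstp1 lies at -2.12, -1.11 and -2.13 in that order, and Cbr3 lies at 1.99 and 2.38 in the CCl4 comparisons.

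Within the Western diet, CCl4 raised 3 members and lowered 6 of 39, against 6.82% of all tested genes. The medians were -0.27 for the glutathione transferases, 0.17 for the other genes and -0.02 over all tested genes. Cbr3 went from 1.11 and 1.56 with oil to 9.26 and 11.7 with CCl4 and rose by 2.29 ± 0.21 on the log2 scale (SE, adjusted p = 0.00125). Gsta2 was at 47.9 and 77.3 with oil and 35.2 and 33.2 with CCl4 and fell by 0.82 ± 0.17 on the log2 scale (SE, adjusted p = 0.03), with both CCl4 pools lower. Gstp1, Gsta4, Gstm6, Gstm7 and Osgin1 fell by 1.02, 0.52, 0.64, 0.49 and 1.14, and Gsta1 and Mgst3 rose by 0.97 and 0.60. The count dropped to 1 without either Western-diet oil pool, to 3 without the 24-week joint pool (4 of the 9 calls were kept without the 12-week one), to 2 without the duration term and to 0 without the filter, and DESeq2 gave 15. Without the 24-week Western-diet oil pool the medians were -0.44 and 0.06, and without the 24-week joint pool that of the other genes was 0.04.

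Adding the Western diet to CCl4, that is the joint pools against the normal-diet CCl4 pools, gave 0 called members by limma (9 at an unadjusted p under 0.05, 0 by edgeR and 1 by DESeq2), with 0.0474% of all tested genes called. The medians were -0.15 and -0.11 for the 2 sets. The interaction, the effect of CCl4 on the Western diet minus that on the normal diet, was called for 1 member, Gstm3, against 0.103% of all tested genes (9 members at an unadjusted p under 0.05, 1 called by edgeR and 3 by DESeq2). Gstm3 was at 406 and 421 on the Western diet with oil and at 289.5 and 407 with CCl4, values that overlap, while on the normal diet the CCl4 pools were the higher pair. The interaction was -2.0 ± 0.19 (SE, adjusted p = 0.0078). Without the 12-week or the 24-week Western-diet oil pool the call was lost, with values between -2.14 and -1.86, and it was lost without the filter. Nfe2l2 had an interaction of -0.83 ± 0.15 (SE, adjusted p = 0.118). Duration, 24 against 12 weeks across the 4 groups, gave 0 called members by limma, with 0% of all tested genes called; 4 members had an unadjusted p under 0.05, and edgeR and DESeq2 called 0. The transferases Gstm1, Gstm5, Gstt2, Gstz1 and Mgst1 and the genes Keap1, Cbr1, Ephx1, Gclm, Gpx2, Txnrd1 and Taldo1 were called by limma in none of the comparisons between pools; DESeq2 called Ephx1 for diet alone and Gpx2 for CCl4 on the Western diet. Gstm5, a low mu-class gene, ranged from 5.89 to 10.4 over the 8 pools, Gstt2 from 39.4 to 69.2, Cbr1 from 85.6 to 119.9, Ephx1 from 517 to 853, Txnrd1 from 136 to 194 and Taldo1 from 116 to 155.

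The following are the pool values of called members that were not given above. Gsta4 was at 100.4 and 103 with the normal diet and oil, 73.9 and 83.8 with the normal diet and CCl4, 93.5 and 107 with the Western diet and oil and 62.99 and 76.3 with the joint exposure. Gstm6 was at 143 and 136 with the normal diet and oil, 91.2 and 76.8 with the normal diet and CCl4, 116 and 121 with the Western diet and oil and 69.4 and 82.3 with the joint exposure. Gstm7 was at 85.7 and 85.8 with the normal diet and oil, 54.9 and 50.9 with the normal diet and CCl4, 76.7 and 75.6 with the Western diet and oil and 54.3 and 53.3 with the joint exposure. For these 3 genes the 4 CCl4 pools were all below the 4 oil pools, as they were for Gstp1, Gsta2, Gsta3, Gsto1, Gclc and Gclm. The share of all tested genes with such a separation was not counted. Mgst3 was at 14.9 and 16.01 with the normal diet and oil, 19.1 and 26.8 with the normal diet and CCl4, 11.6 and 11.98 with the Western diet and oil and 17.5 and 19.4 with the joint exposure. Pgd was at 56.4 and 52.98 with the normal diet and oil, 79.9 and 92.03 with the normal diet and CCl4, 60.1 and 54.5 with the Western diet and oil and 72.9 and 88.8 with the joint exposure. For both of them the 4 CCl4 pools were all above the 4 oil pools, as they were for Gsta1, Cbr3, Hmox1 and, at few reads, Slc7a11 and Gpx2. The share of all tested genes was again not counted. Gsta1 was at 2.86 and 3.45 with the Western diet and oil, Gsta2 at 38.6 and 46.5 with the normal diet and oil and 28.8 and 30.8 with the normal diet and CCl4, and Gsta3 at 2142 and 1956 with the Western diet and oil and 1693 and 1108 with the joint exposure. Gstm2 was at 81.4 and 95.5 with the Western diet and oil and 81.4 and 106 with the joint exposure, and Gstm4 at 111 and 94.7 with the normal diet and CCl4 and 94.8 and 92.8 with the Western diet and oil. Gstp2 was at 2.26 and 0.742 with the Western diet and oil and 1.42 and 3.30 with the joint exposure, which overlap. Gsto1 was at 129.7 and 113 with the Western diet and oil and 99.01 and 59.3 with the joint exposure, Gstt1 at 291 and 258 with the normal diet and CCl4 and 250.4 and 229 with the Western diet and oil, Gstt3 at 72.99 and 45.8 with the normal diet and CCl4 and 71.7 and 80.3 with the Western diet and oil and Gstk1 at 128 and 106 with the normal diet and CCl4 and 103 and 107 with the Western diet and oil. Among the other genes, Hmox1 was at 30.3 and 32.6 with the Western diet and oil and 37.9 and 36.5 with the joint exposure, with both joint pools above both pools of the diet alone. Gsr was at 76.6 and 72.7 with the normal diet and CCl4 and 72.3 and 71.6 with the Western diet and oil, and G6pdx at 7.32 and 9.44 with the normal diet and CCl4 and 7.95 and 6.64 with the Western diet and oil. On the Western diet with oil, Gclc was at 433 and 424, Srxn1 at 53.6 and 60.8, Osgin1 at 198 and 178 and Slc7a11 at 2 and 6 reads.

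The tumours were compared with the joint pools, their background exposure. As a pair they gave 1 called member, Osgin1, against 0.972% of all tested genes (5 members at an unadjusted p under 0.05, 1 called by edgeR and 2 by DESeq2). Osgin1 was at 376 and 516 in tumours 1 and 2 and at 87.5 and 81.4 in the joint pools. In the fit with the duration term it rose by 2.67 ± 0.32 on the log2 scale (SE, adjusted p = 0.0209). Without that term the change was 2.37. The fitted effect of duration on Osgin1 across the pools was -0.60, whereas the joint pools differed by -0.10. Both tumours were also above all 8 pools, of which the highest had 293. The call was lost when any 1 of the 8 pools was omitted, with changes between 2.42 and 3.08, and kept without either tumour. The tumours stood on opposite sides of the pools for many members, so each is described by itself.

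Tumour 1 was at least 2-fold above the highest of the 8 pools (on the log2(value + 1) scale) for 11 of 39 members, or 28.2%, against 2.5% of all tested genes. No member was at least 2-fold below the lowest pool, against 1.44% of all tested genes. The 11 comprised 4 of 21 glutathione transferases (Gsta1, Gstm1, Gstm3 and Gstm4) and 7 of 18 other genes (Nqo1, Cbr1, Cbr3, Slc7a11, Gpx2, Srxn1 and Pgd). Slc7a11 and Gpx2 passed the filter only through libraries where they were high, tumour 1 among them, so their place in this count carries no weight. The same holds for these genes in the later counts of members higher in tumour 1. Tumour 2 was the reverse: 0 members were at least 2-fold above the highest pool, against 2.45% of all tested genes, and 8, or 20.5%, were at least 2-fold below the lowest, against 2.26%. Those 8 were Gsta2, Gsta3, Gstm1, Gstm2, Gstm3, Gstk1, Mgst1 and Ephx1, so 7 of them are glutathione transferases. These are single tumours, with no replicate of either.

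Cbr3 was at 189.9 in tumour 1 (4857 reads), at 3.34 in tumour 2 (86 reads) and at 1.06 to 11.7 in the pools. Nqo1 was at 148 and 6.87, with 9.53 to 19.7 in the pools. Tumour 1 stood apart above all pools for both genes, and tumour 2 lay inside the range of the pools for Cbr3 and below it for Nqo1. Slc7a11 had 2349 reads in tumour 1, 12 in tumour 2 and at most 80 in a pool. Gpx2 had 2942 reads in tumour 1, 3 in tumour 2 and at most 129 in a pool. Both genes were near the counting limit in most other libraries, and their change is large in reads as well as in the normalised values of 91.8 and 115. Srxn1 was at 345 in tumour 1 and 82.1 in tumour 2, Pgd at 219.7 and 73.2, and Cbr1 at 350.4 and 65.2. For Srxn1 and Pgd tumour 2 lay within the pools' ranges of 49.3 to 135 and 52.98 to 92.03, and for Cbr1 it lay below the range of 85.6 to 119.9.

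Among the transferases, Gstm1 was at 9298 in tumour 1 and 837 in tumour 2, with 2276 to 2905 in the pools. The narrow range over the pools lay between the tumours. Gstm3 was at 1167 and 28.8, against 126 to 501. Gsta2 had 3209 reads in tumour 1 and 14 in tumour 2, normalised values of 125 and 0.543, against 28.8 to 77.3 in the pools; the ratio between the tumours, 231, was the largest of the tested members apart from Gpx2 with its 3 reads in tumour 2. Gsta3, at 2225 in tumour 1 and within the pools' range of 1108 to 2265, was at 197 in tumour 2, so for this gene it is tumour 2 alone that stands apart. Mgst1 was at 2937 and 957, both below the pools (3301 to 4820.1), and Gstk1 likewise at 51.6 and 38.1 against 94.5 to 139. Gstz1, which isomerises maleylacetoacetate in tyrosine breakdown, was also below the pools in both, at 297 and 475 against 533 to 896. The theta-class genes did not separate the tumours: Gstt1 was at 232 and 279.7, Gstt2 at 41.3 and 43.1, and Gstt3 at 33.98 and 44.2. For Gstt3 both tumours were below the pools (44.7 to 92.04), tumour 2 only just.

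Among the remaining transferases, Gsta1 was at 30.4 in tumour 1 and 1.40 in tumour 2, Gsta4 at 106 and 34.4, Gstm2 at 136 and 26.2, and Gstm4 at 246 and 33.3. In tumour 2 these 4 were below all pools. Gstm6 was at 127 and 49.8, Gstm7 at 67.1 and 88.1, Gstp1 at 526 and 171, Gstp2 at 12.04 and 1.05, Gsto1 at 66.9 and 42.1, and Mgst3 at 31.5 and 5.98. Of these 6, Gstm7 was the one that was higher in tumour 2. Gstm5 was at 16.6 and 11.7, above the pools (5.89 to 10.4) in both tumours. Gsr was at 111 and 41.7, above and below all pools, and G6pdx at 10.6 and 16.3.

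**Figure D3:**
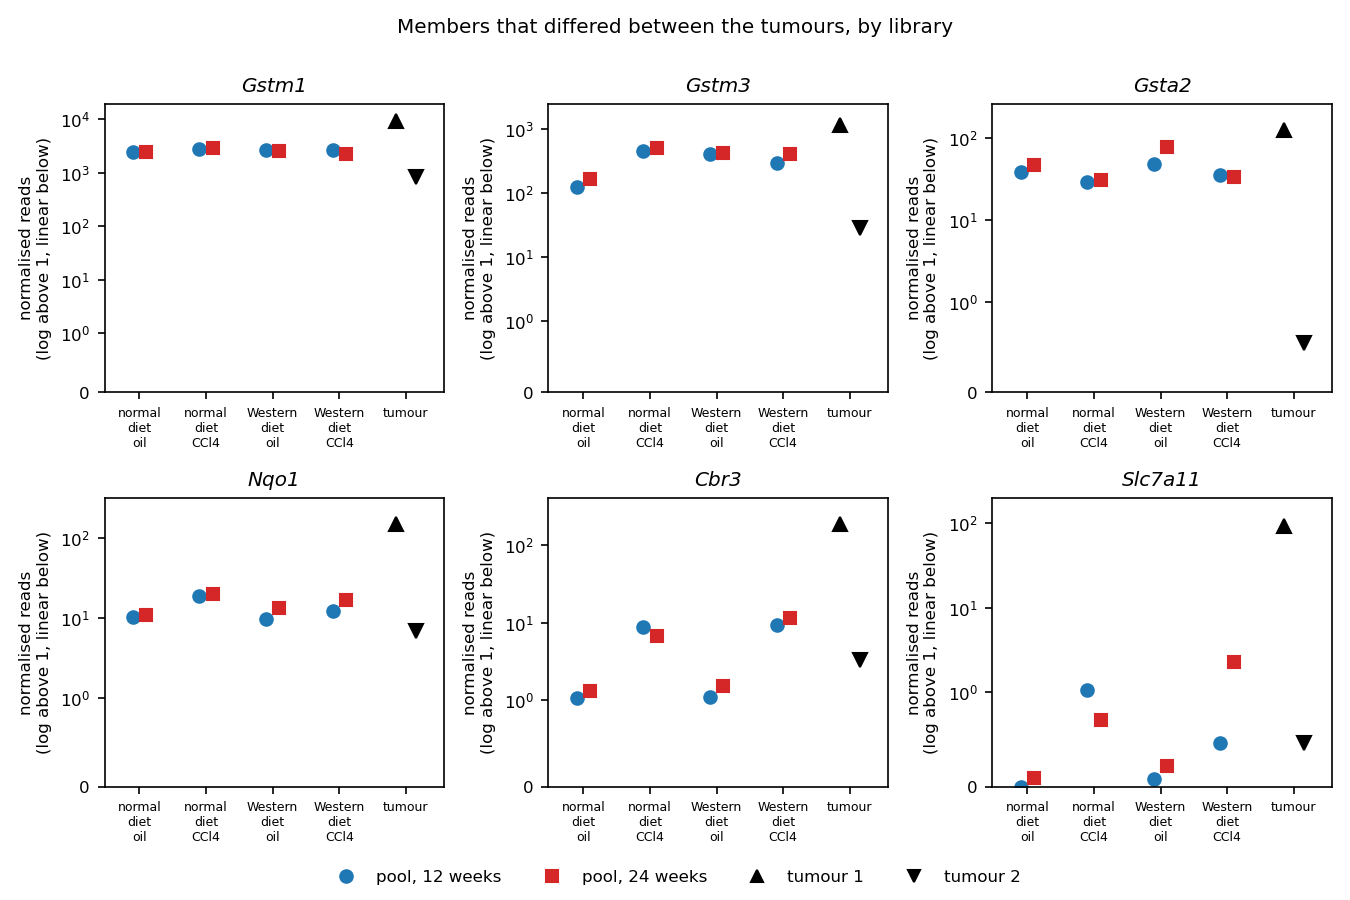
Normalised reads of Gstm1, Gstm3, Gsta2, Nqo1, Cbr3 and Slc7a11 in the 8 pools (circles 12 weeks, squares 24 weeks) and the 2 tumours (triangles), on an axis that is logarithmic above 1 and linear below. Tumour 1 is the highest library in each panel, for example 9298 for Gstm1, and tumour 2 is the lowest for Gstm1, Gstm3, Gsta2 and Nqo1.

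Set directly against each other, tumour 1 was at least 2-fold above tumour 2 for 25 of 39 members (64.1%, against 7.95% of all tested genes), 13 of 21 transferases and 12 of 18 other genes. The reverse held for 0 members, against 6.4% of all tested genes. The median difference, tumour 1 minus tumour 2, was 1.59 over the members and -0.01 over all tested genes. Of the 39 members, 30 were higher in tumour 1, and Gstm7, Gstt1, Gstt2, Gstt3, Gstz1, Nfe2l2, Keap1, Osgin1 and G6pdx were lower there by less than 2-fold. Among the regulators, Nfe2l2 was at 67.5 in tumour 1 and 133 in tumour 2, with 62.4 to 115 in the pools, and Keap1 was at 48.5 and 58.5, with 53.7 to 67.3. The transcript of NRF2 was thus lower in tumour 1, where 30 of the 39 members, not all of them NRF2 targets, were higher. The NRF2 targets Osgin1 and G6pdx were lower there too, and each tumour is a single sample. Gclc, at 997 and 218, split the tumours, and Gclm, at 172 and 99.1, did so by less than 2-fold. Hmox1 was at 30.7 and 25.4, inside the pools' range of 20.7 to 45.4. Txnrd1, thioredoxin reductase, was at 350.4 and 127 against 136 to 194, and Taldo1, of the pentose phosphate pathway, at 261 and 93.97 against 116 to 155. Both were above the pools in tumour 1 and below them in tumour 2.

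Each tumour was also fitted alone against the joint pools, with the duration term kept and the lone tumour assumed to vary like the pools. The SE and calls of these fits rest on that assumption and do not measure the spread between tumours. For Gsta2 the SE was 0.22 with tumour 1 alone, 0.23 with tumour 2 alone and 1.76 with both. Tumour 1 gave 24 members higher and 3 lower of 39 (69.2%, against 17.9% of all tested genes), with medians of 0.65 for the transferases and 1.35 for the other genes. Tumour 2 gave 3 higher and 20 lower (59%, against 18.9%), with medians of -1.03 and -0.49. The 3 lower members of tumour 1 were Gstk1, Gstz1 and Nfe2l2, at -0.91 ± 0.16, -0.97 ± 0.21 and -0.51 ± 0.13 (SE), and the 3 higher members of tumour 2 were Gstm7, Nfe2l2 and Osgin1, at 0.72 ± 0.13, 0.47 ± 0.13 and 2.90 ± 0.32. The summed level of the 22 transferases was 17774 in tumour 1 and 3366 in tumour 2, against 8748 to 13117 in the pools. For the 18 other genes the sums were 5278 and 1796, against 2023 to 2559.5. Beside these values, hepatocyte markers summed to 112931 in tumour 1 and 334300 in tumour 2. Alb alone was at 66122 in tumour 1 and 203789 in tumour 2. Of these markers, 7 of 10 were at least 2-fold higher in tumour 2, against 6.4% of all tested genes. Only 1, Ttr, was higher in tumour 1 (4444 against 3496 in tumour 2). In tumour 2, Ttr and Cps1 (1864) were below all pools. Albumin took 17.7% of the reads of tumour 2 and 6.47% to 10.4% in the other libraries. Stellate markers summed to 885 and 472, macrophage markers to 849.9 and 873, bile duct markers to 475 and 1180.4, endothelial markers to 249.8 and 214, and neutrophil markers to 10.7 and 10.6. Most of the bile duct sums came from Spp1, at 357 and 772, and Cdh1, at 57.1 and 312. Of the 9 tested bile duct markers, 4 were higher in tumour 1, Krt19 and Krt7 among them. Their median difference, tumour 1 minus tumour 2, was -0.04. The part of cell composition in the tumour values was not tested.

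**Figure D4:**
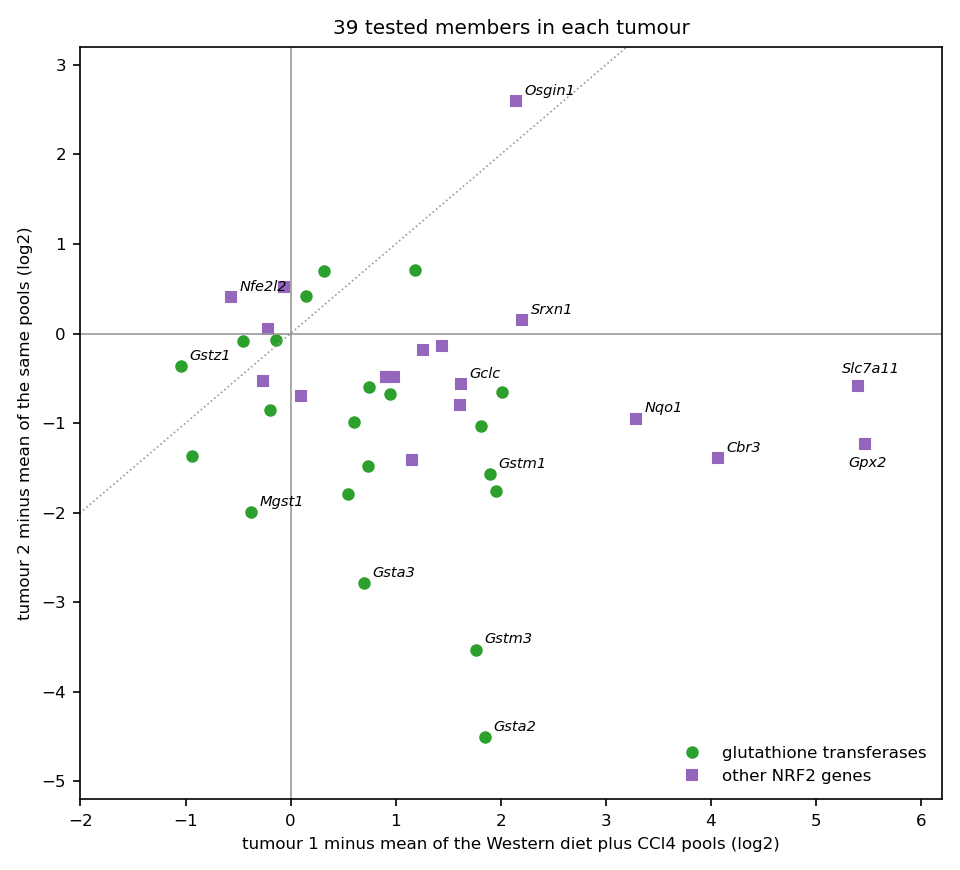
Log2 difference from the mean of the joint pools for the 39 tested members, tumour 1 on the horizontal and tumour 2 on the vertical axis, with glutathione transferases and other NRF2 genes marked separately. Most points lie to the right of and below the diagonal (30 of 39 members were higher in tumour 1), and Osgin1 is far above 0 in both tumours.

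Other genes of the pathway were followed in 2 lists. Of 22 further NRF2 pathway genes, all tested, 3 rose and 1 fell with CCl4 on the normal diet, 0 were called with diet alone by limma (4 at an unadjusted p under 0.05, 0 called by edgeR and 2 by DESeq2, 1 in each direction), 3 rose and 4 fell with joint exposure, and 1 fell with CCl4 on the Western diet. The shares called were 18.2%, 0%, 31.8% and 4.55%, against 26%, 1.99%, 25.9% and 6.82% of all tested genes. The small MAF partner gene Maff went from 4.66 and 2.79 to 10.5 and 14.7 with CCl4 on the normal diet and rose by 1.54 ± 0.26 on the log2 scale (SE, adjusted p = 0.00421). The exporter gene Abcc4 went from 3.19 and 4.03 to 8.67 and 13.7 and rose by 1.38 ± 0.20 on the log2 scale (SE, adjusted p = 0.00228). Mafk rose by 0.94, and Idh1, a cytosolic source of NADPH, fell by 0.47. With joint exposure, Ugdh, which makes the sugar donor for glucuronidation, fell by 0.73 and Blvrb, biliverdin reductase B, by 0.60. In tumour 1, 5 of these 22 (22.7%) were at least 2-fold above all pools, against 2.5% of all tested genes. In tumour 2, 4 (18.2%) were at least 2-fold below all pools, against 2.26%. Also in tumour 2, 1 of them (4.55%) was at least 2-fold above all pools, against 2.45%. For 13 of 22 (59.1%) tumour 1 was at least 2-fold above tumour 2, against 7.95% of all tested genes. For 1 (4.55%, against 6.4%), Bach1, a repressor of NRF2 targets, the reverse held (48.6 and 132). Abcc4 was at 87.8 and 3.49, Ugdh at 329.6 and 30.1, and the malic enzyme gene Me1 at 291 and 41.2.

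Of 15 tested genes of glutathione metabolism outside the members, 5 rose and 3 fell with CCl4 on the normal diet, 0 were called with diet alone by limma (2 at an unadjusted p under 0.05, 0 called by edgeR and 0 by DESeq2), 4 rose and 3 fell with joint exposure, and 2 rose and 2 fell with CCl4 on the Western diet. The shares called were 53.3%, 0%, 46.7% and 26.7%, against the same 26%, 1.99%, 25.9% and 6.82%. Cth, which makes cysteine from cystathionine, was at 655 and 922 with oil and 261 and 191 with CCl4 on the normal diet, and fell by 1.79 ± 0.29 on the log2 scale (SE, adjusted p = 0.00375). Cbs, the step before it, was at 818 and 711 with oil and 399 and 366 with CCl4 and fell by 0.997 ± 0.12 on the log2 scale (SE, adjusted p = 0.00107). The CCl4 pools were lower in both cases. Over the 15 genes the changes with CCl4 on the normal diet ran from -1.79 to 1.71. Gpx3, a secreted glutathione peroxidase, was at 4.39 and 4.12 unexposed and at 8.63 and 29.6 with CCl4 on the normal diet. With joint exposure it was at 21.7 and 45.8 and rose by 2.63 ± 0.36 on the log2 scale (SE, limma adjusted p = 0.00131). Hpgds, a sigma-class transferase that makes prostaglandin D and is expressed by immune cells, was at 0.754 and 1.51 unexposed. It was at 1.43 and 4.27 with CCl4 on the normal diet and at 5.22 and 6.46 with joint exposure. With joint exposure Hpgds rose by 1.70 ± 0.24 on the log2 scale (SE, limma adjusted p = 0.00171), and macrophage markers were higher in the same pools. The part of cell composition in its rise was not tested.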

How the data were processed

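RNA from 8 liver pools and 2 tumours was sequenced after poly-A selection with a TruSeq kit on 200 ng of total RNA, per the labels' protocols. Reads were aligned with STAR to mm10, per the submitters' processing notes; the sources used here do not give the read counter, annotation, scaling method or versions. The deposited values are a normalised signal per gene, that is read counts divided by a factor per library, and 100% of them were whole multiples of 1 read within 0.1 reads, so reads were recovered. The factors multiply to 1.0 over the 10 libraries, and depth was 23206229 to 30137802 reads, a range of precision that is similar for all libraries.

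The 12648 genes that reached a value of 1 in 2 or more libraries were kept. log2(value + 1) was fitted with limma 3.58.1 (R 4.3.3), using 1 mean per group and a term for duration, trended variance, two-sided tests and Benjamini-Hochberg adjustment over all tested genes; residual degrees of freedom were 3 for the pools and 4 with the tumours. No combination of diet and treatment has 2 pools at one duration. P-values among pools therefore measure only the spread between these pools that the duration term leaves. The 2 tumours are the one group with 2 libraries at one duration, and their spread enters the tumour comparison. Alternatives left out each library in turn, the filter or the duration term, lowered the pseudocount to 0.1, added median-ratio size factors, or used count tests on recovered reads (edgeR 4.0.16, DESeq2 1.42.0); edgeR called 3268 genes for CCl4 on the normal diet and 3256 for joint exposure. The fits were checked on simulated data.

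The members and lists were chosen with earlier results of these data known. All members may be named; values in every library are given for called members, for Nfe2l2, Keap1, Nqo1, Hmox1 and Gclc, and for members the tumour values turn on, which were chosen after their values were seen. From each pathway list up to 4 called genes per comparison with the largest change may be named; Bach1 and the genes named with tumour values were chosen after their values were seen. Of 138 list entries, 134 matched by symbol, 2 by an older symbol and 2, Gsta13 and Gstp3, not. Exon lengths, positions and shared words came from GENCODE vM21 (GRCm38), and promoter windows from RefSeq (GRCm38.p6).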

Additional observations from a re-analysis of the deposited data

Results flagged for a closer look

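For Gstm3 the effect of CCl4 on the Western diet minus that on the normal diet was -2.0 on the log2 scale and passed the test of the difference (limma, adjusted p = 0.0078). A further 3 members were picked by sign alone: both pairs of pools were higher with CCl4 on the normal diet and lower with CCl4 on the Western diet. The share of all tested genes with this pattern was not counted. For Keap1 the 24-week changes, 0.05 and -0.02 on the log2 scale, were close to none. The difference was -0.83 for Nfe2l2 (adjusted p = 0.118), -0.29 for Keap1 (adjusted p = 0.644) and -0.49 for Ephx1 (adjusted p = 0.54), and none of these 3 passed the threshold in limma's test of the difference.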

How the results depend on the processing

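Of 53 member calls over all comparisons, 17 held whichever library was left out and 16 under every alternative; none of the changes of single members reversed sign where called. The fit kept 53 calls with DESeq2, 53 with median-ratio size factors, 52 with a pseudocount of 0.1, 50 with edgeR, 37 without the duration term and 23 without the filter. Without the filter, 11 members were called for CCl4 on the normal diet, 0 for diet alone, 11 for joint exposure, 0 for CCl4 on the Western diet and 0 for the interaction, and the transferase median for the Western diet added to CCl4 was -0.115. DESeq2 gave 15 calls for CCl4 on the Western diet, 1 for the Western diet added to CCl4, 3 for the interaction and 2 for the tumours. Without the duration term there were 2 calls for CCl4 on the Western diet and 2 for the tumours. The median of the other NRF2 genes for CCl4 on the normal diet was 0.412 with a pseudocount of 0.1, 0.43 with edgeR and 0.421 with DESeq2. Leaving out 1 library at a time gave 10 to 22 calls for CCl4 on the normal diet, 0 to 3 for diet alone, 13 to 20 for joint exposure, 1 to 10 for CCl4 on the Western diet, 0 to 1 for the Western diet added to CCl4, 0 to 1 for the interaction and 0 to 27 for the tumours (0 without any 1 pool, 23 without tumour 1 and 27 without tumour 2). In the same fits the transferase median lay between -0.48 and -0.134 for CCl4 on the normal diet, -0.534 and -0.259 for joint exposure, -0.301 and -0.0307 for diet alone, -0.437 and -0.219 for CCl4 on the Western diet, -0.209 and -0.0555 for the Western diet added to CCl4, and -0.144 and 0.0487 for the interaction. That of the other NRF2 genes lay between 0.037 and 0.135 for diet alone, 0.277 and 0.378 for joint exposure, 0.0401 and 0.179 for CCl4 on the Western diet, -0.204 and -0.0425 for the Western diet added to CCl4, and -0.357 and -0.0394 for the interaction. The cause of these shifts was not tested; fits with a library left out also have fewer samples, and the fit without the filter tests 17615 genes. Counting limits Slc7a11 and Gpx2, where most pools had at most 27 reads. The duration term pairs the pools by weeks, and the fit without it is the unpaired one; the labels give no replicate numbers for another pairing.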

Other observations

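Oplah, which opens 5-oxoproline in the glutathione cycle, was at 45.3 in tumour 1 and 59.9 in tumour 2 and at 155 and 139.9 in the 12- and 24-week joint pools. It was lower in both tumours by -1.39 ± 0.18 on the log2 scale (SE, limma adjusted p = 0.0209), the only call among the 15 tested glutathione genes outside the members. Both tumours lay below all 8 pools. Cth and Cbs, which make cysteine from homocysteine, were at 187 and 213 in tumour 1 and at 93.0 and 214 in tumour 2, below all 8 pools, and were not called in that comparison. Among the small MAF partners of NRF2, Maff was at 41.9 and 29.4 in tumours 1 and 2 and at most 14.7 in a pool, with a change of 1.73 ± 0.32 from the joint pools (SE, limma adjusted p = 0.0562).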
